A study of Mus musculus with 5 samples.

Results

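The PARP family genes Parp1, Parp2, Parp3, Parp8, Parp9, Parp10, Parp11, Parp12 and Parp14 were examined in RAW264.7, an established mouse line that behaves like macrophages. They were taken by gene symbol from a named list of 9 family members, which leaves out 7 others such as Parp4, Tiparp and the tankyrases. All 9 were among the 21878 gene symbols measured, with 36 of the 75959 transcripts. RNA was sequenced from cells given lipopolysaccharide (LPS, a component of the outer membrane of bacteria that macrophages sense) at 0.5 mg/mL together with 1 μM arctigenin, a plant lignan (2 libraries), from cells given LPS at 0.5 mg/mL alone (2 libraries), and from cells labelled as given vector (1 library). Doses are as labelled, no treatment time is given in the labels, and what "vector" held is unstated, so no solvent control for arctigenin is identified. All groups are the same line, and since the labels name no separate cultures, the p-values reflect variation among these libraries alone, which may be technical.

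PARP enzymes take ADP-ribose from the cofactor NAD+ and attach it to proteins or nucleic acids. Parp1 and Parp2 build chains of ADP-ribose at broken DNA, while most other members attach the unit singly, and Parp9, Parp12 and Parp14 are known as interferon-responsive genes with antiviral roles. In macrophages Parp1 is also known as a cofactor of NF-kB, and Parp9 and Parp14 as regulators of the response to interferon.

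Sequence upstream of the members was taken from RefSeq (build GRCm38.p6), as the 250 bases before each annotated start, for the 6 members matched in the promoter table used here: Parp1, Parp2, Parp3, Parp8, Parp11 and Parp12, with 7 windows in all. Parp9, Parp10 and Parp14 were not matched. Each window was searched on both strands for GAAA followed after any 2 bases by GAAA, a core of the interferon-stimulated response element (ISRE), and for TTCNNNGAA, the gamma-activated sequence (GAS) of interferon-responsive genes. Over all windows of this length, 2.98% (978 of 32851) held the first and 7.02% (2306) held the second. Among these 7 windows 1, of Parp11, held a match, and it held both. The window at the other annotated Parp11 start (chr6:127453377-127453626) held neither. The 4 windows below are shown because they belong to the member with the matches, to the member with the largest rise with LPS, and to Parp3 and Parp1, called lower and higher with arctigenin. Capitals mark the overlapping Parp11 matches, the ISRE letters on the minus strand from 44 bases and the GAS letters from 37 bases before the start. A match is a description of letters and not of a bound site.
Parp11, chr6:127446590-127446839, plus strand: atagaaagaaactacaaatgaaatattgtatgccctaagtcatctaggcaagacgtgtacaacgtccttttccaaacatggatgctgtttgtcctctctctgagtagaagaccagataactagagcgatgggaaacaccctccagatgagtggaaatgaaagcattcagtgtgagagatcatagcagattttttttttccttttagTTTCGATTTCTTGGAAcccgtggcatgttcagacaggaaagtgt
Parp12, chr6:39118350-39118599, minus strand: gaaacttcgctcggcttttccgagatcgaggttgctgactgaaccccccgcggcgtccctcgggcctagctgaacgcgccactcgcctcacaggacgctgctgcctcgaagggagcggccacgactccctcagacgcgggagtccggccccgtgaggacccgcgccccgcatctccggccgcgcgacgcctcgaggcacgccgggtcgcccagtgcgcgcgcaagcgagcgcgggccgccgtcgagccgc
Parp3, chr9:106476950-106477199, minus strand: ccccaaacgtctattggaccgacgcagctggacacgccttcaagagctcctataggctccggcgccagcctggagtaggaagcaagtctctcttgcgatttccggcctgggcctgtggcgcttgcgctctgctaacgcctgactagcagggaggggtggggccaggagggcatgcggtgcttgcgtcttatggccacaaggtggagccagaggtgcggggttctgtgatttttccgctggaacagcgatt
Parp1, chr1:180568641-180568890, plus strand: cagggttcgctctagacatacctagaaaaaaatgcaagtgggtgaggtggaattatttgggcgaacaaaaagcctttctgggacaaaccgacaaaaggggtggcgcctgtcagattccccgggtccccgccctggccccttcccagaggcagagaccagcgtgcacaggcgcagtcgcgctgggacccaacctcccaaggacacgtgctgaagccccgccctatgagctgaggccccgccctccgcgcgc
The share of G and C was 40.4% in the Parp11 window shown, 73.6% in that of Parp12, 61.2% in that of Parp3 and 61.6% in that of Parp1. It was 57.6% in the Parp11 window without a match.

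Library totals lay between 19836148 and 21578285 estimated counts, and replicates correlated across genes at r = 0.986 for LPS with arctigenin and r = 0.989 for LPS. The first principal component (57.5% of the variance) set vector apart and the second (28.8%) separated LPS with arctigenin from LPS. All 9 macrophage markers in the table were detected, with summed levels of 4513 to 6900 CPM (library-scaled counts, with TMM factors). T cell markers summed to 0 to 0.0797 CPM with Cd3e and Cd3g at 0 in every library, B cell markers to 0 to 0.12 CPM, epithelial markers to 0.049 to 0.213 CPM with Epcam at 0, endothelial markers to 0.598 to 3.25 CPM, fibroblast markers to 0.598 to 4.41 CPM and the erythroid marker to 0 to 0.956 CPM. Dcn, of the fibroblast list, had 0.426 and 0.475 CPM in LPS with arctigenin, 3.87 and 3.36 CPM in LPS and 0.319 CPM in vector. Of the macrophage markers, Lyz2 (lysozyme) averaged 1632 CPM in LPS with arctigenin, 1695 CPM in LPS and 4358 CPM in vector, and Csf1r, the receptor for macrophage colony-stimulating factor, 89.2 CPM in LPS with arctigenin, 104.2 CPM in LPS and 479.5 CPM in vector. Itgam averaged 678.9 CPM in LPS with arctigenin, 993.4 CPM in LPS and 441.8 CPM in vector. Vector was also lowest for Fcgr1, Adgre1, Cd68, Spi1, Ptprc and Mertk, the last of which had few counts. The part of these markers in the results was not tested.

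With LPS, 6 of the 8 members that passed the count filter rose against vector and 1, Parp2, fell, where 27.1% of all 11575 genes tested rose and 24.9% fell (52% either way). Genes were tested by edgeR (quasi-likelihood F test), adjusted by Benjamini-Hochberg across all of them, and called below 0.05. The members' median log2 fold change was 1.09, against -0.01 for all genes. The 7 other family members, described further on, had a median of 0.064, so the members' median does not hold for the whole family. The members were chosen with earlier results of these data known. With arctigenin added to LPS, 2 members rose and 3 fell, where 22.8% of genes rose and 22% fell (44.8% either way), and the median was -0.018 against -0.003. In LPS with arctigenin against vector, 7 members rose, where 30.4% of genes rose and 25.7% fell (56.2% either way), with a median of 0.84 against 0.03. The comparisons share libraries, so these counts are not independent of each other, and the spread of the single vector library was taken from the other groups. Scaling by library totals alone shifted the median of all genes to -0.26 in LPS against vector and to -0.27 in LPS with arctigenin against vector, where 30.5% and 31% of the called genes were then higher, against 52.1% and 54.2% with TMM factors. In bulk RNA, fewer cells of a type and less RNA per cell cannot be told apart.

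**Figure D1:**
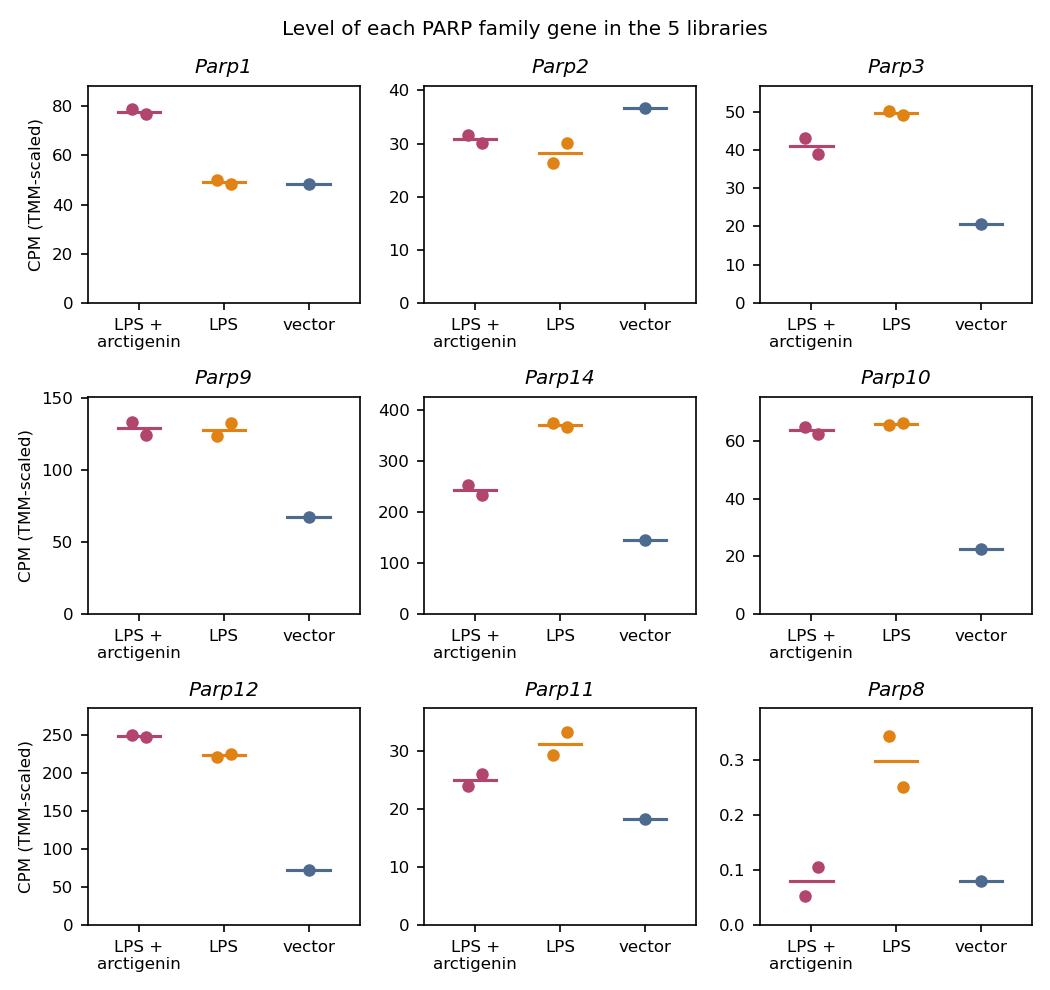
Level in CPM of each of the 9 PARP genes, with points for single libraries and horizontal bars for group means. Parp1 stands higher in both LPS with arctigenin libraries (78.7 and 77.0 CPM) than in the other 3, and Parp14 stands highest in the LPS libraries (375.7 and 367.7 CPM).

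The plot of levels by library places each member on its own scale, so that groups can be compared within a gene. Levels of different genes are compared only per kilobase, further on.

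Parp1, the main DNA break sensor of the family, changed with arctigenin and not detectably with LPS alone. Its level was 78.7 and 77.0 CPM in LPS with arctigenin, 49.9 and 48.2 CPM in LPS, and 48.3 CPM in vector. Both LPS with arctigenin libraries lay above the other 3, and the vector library lay between the LPS libraries. Parp1 rose 1.59-fold with arctigenin against LPS (log2 fold change 0.67 ± 0.08 SE, edgeR adjusted p = 9.76e-05), with means of 77.8 ± 1.20 CPM in LPS with arctigenin and 49.1 ± 1.19 CPM in LPS (SD, n = 2 each). The call held in all 12 alternatives, with a log2 fold change of 0.62 to 0.69. Against vector, LPS with arctigenin was 1.61-fold higher (0.69 ± 0.10, edgeR adjusted p = 0.000158), while LPS alone gave 0.02 ± 0.09 (edgeR adjusted p = 0.855). Parp1 lies at chr1:182499086-182531384 on the plus strand of mm9 and has 1 transcript in the table. In the separate fit over transcripts that transcript was not called with arctigenin against LPS (0.65 ± 0.09, edgeR adjusted p = 0.0628). Nor was it called in LPS with arctigenin against vector (0.61 ± 0.11, edgeR adjusted p = 0.0542).

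Parp2, the close relative of Parp1 that also responds to DNA breaks, was the member that fell with LPS. It had 31.7 and 30.2 CPM in LPS with arctigenin, 26.3 and 30.1 CPM in LPS, and 36.6 CPM in vector. The vector library was above the other 4, and the higher LPS library came just below the lower LPS with arctigenin library. The fall with LPS was 1.30-fold (log2 fold change -0.38 ± 0.12 SE, edgeR adjusted p = 0.0256). That call was lost with DESeq2 (adjusted p = 0.113), without LPS replicate 1 (adjusted p = 0.164) and with curated transcripts only (adjusted p = 0.125). Arctigenin against LPS gave 0.13 ± 0.10 (edgeR adjusted p = 0.325) and LPS with arctigenin against vector gave -0.24 ± 0.12 (edgeR adjusted p = 0.115).

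Parp3, which attaches ADP-ribose singly at DNA breaks, rose with LPS and was lower with arctigenin. Its level was 43.1 and 38.9 CPM in LPS with arctigenin, 50.1 and 49.0 CPM in LPS, and 20.7 CPM in vector. The groups did not overlap, and vector was lowest. LPS raised it 2.39-fold (log2 fold change 1.26 ± 0.12 SE, edgeR adjusted p = 1.46e-05), and LPS with arctigenin stood 1.98-fold above vector (0.98 ± 0.12, edgeR adjusted p = 6.69e-05). Against LPS, arctigenin gave -0.28 ± 0.09 (edgeR adjusted p = 0.0328), a call that was lost with DESeq2 (adjusted p = 0.119) and without LPS with arctigenin replicate 2 (0.131), LPS replicate 1 (0.168) or LPS replicate 2 (0.122). With curated transcripts only it reversed (0.52, edgeR adjusted p = 0.358). Curated transcripts held 5.74% to 12.7% of the gene's estimated counts, so that alternative rested on few reads, and with it LPS against vector gave 0.45 (edgeR adjusted p = 0.511). Parp3 (chr9:106372653-106379280, minus strand, mm9) overlaps Rrp9 on the other strand by 987 bp, and it is not stated whether reads were counted by strand.

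Parp9, an ADP-ribose-binding member that works in a complex with the ubiquitin ligase Dtx3l, rose with LPS and did not change detectably with arctigenin. It had 133.6 and 124.4 CPM in LPS with arctigenin, 123.5 and 132.5 CPM in LPS, and 67.3 CPM in vector. The LPS with arctigenin and LPS libraries overlapped, and all 4 were above vector. The rise was 1.90-fold with LPS (log2 fold change 0.93 ± 0.09 SE, edgeR adjusted p = 1.51e-05) and 1.92-fold with LPS and arctigenin (0.94 ± 0.09, edgeR adjusted p = 1.18e-05). Arctigenin against LPS gave 0.01 ± 0.07 (edgeR adjusted p = 0.912).

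Dtx3l, the partner of Parp9, rose with LPS too but was lower with arctigenin. It had 119 and 117.1 CPM in LPS with arctigenin, 142.6 and 144.9 CPM in LPS, and 56.1 CPM in vector. Its log2 fold change was -0.28 ± 0.06 with arctigenin against LPS (edgeR adjusted p = 0.004) and 1.36 ± 0.08 with LPS against vector (edgeR adjusted p = 6.13e-07). The difference between the Parp9 and Dtx3l changes was not tested. Parp9 (chr16:35938556-35972691, plus strand) and Dtx3l (chr16:35926597-35939237, minus strand) overlap by 682 bp head to head in mm9, and Parp14 (chr16:35832960-35871630, minus strand) ends 54966 bp before Dtx3l. Parp9 also overlaps the opposite-strand transcript Gm15564 by 5854 bp.

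Parp14, a large member with macrodomains that read ADP-ribose, had the largest fall with arctigenin among the 8 tested members. Its level was 252.9 and 233.6 CPM in LPS with arctigenin, 375.7 and 367.7 CPM in LPS, and 144.9 CPM in vector. The groups did not overlap, with LPS with arctigenin between vector and LPS. It fell 1.53-fold with arctigenin against LPS (log2 fold change -0.61 ± 0.06 SE, edgeR adjusted p = 4.59e-05), with means of 243 ± 13.6 CPM in LPS with arctigenin and 372 ± 5.71 CPM in LPS (SD, n = 2 each). The call held in all 12 alternatives, from -0.67 to -0.56. LPS raised it 2.57-fold against vector (1.36 ± 0.08, edgeR adjusted p = 6.57e-07), and LPS with arctigenin stood 1.68-fold above vector (0.75 ± 0.08, edgeR adjusted p = 2.75e-05).

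Parp10, Parp11 and Parp12 attach ADP-ribose singly. Parp12, a zinc finger member, had 250.5 and 247.7 CPM in LPS with arctigenin, 220.7 and 225.2 CPM in LPS, and 71.9 CPM in vector. The groups did not overlap, and vector was lowest by a wide gap. It rose 3.10-fold with LPS (log2 fold change 1.63 ± 0.08 SE, edgeR adjusted p = 1.39e-07), the largest rise among the 8 tested members, and 3.46-fold with LPS and arctigenin (1.79 ± 0.08, edgeR adjusted p = 7.04e-08). Arctigenin against LPS gave 0.16 ± 0.06 (edgeR adjusted p = 0.0438), but 9 of 12 alternatives lost it, among them the omission of any 1 of the 4 libraries, and over all 12 the adjusted p ran from 0.0432 to 0.217.

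Parp10, a mono-ADP-ribosyltransferase, had 65.0 and 62.6 CPM in LPS with arctigenin, 65.6 and 66.3 CPM in LPS, and 22.7 CPM in vector. Vector lay far below the other 4 libraries, which lay close together. The rise with LPS was 2.91-fold (log2 fold change 1.54 ± 0.11 SE, edgeR adjusted p = 1.54e-06) and with LPS and arctigenin 2.81-fold (1.49 ± 0.11, edgeR adjusted p = 1.64e-06). Arctigenin against LPS gave -0.05 ± 0.08 (edgeR adjusted p = 0.657). Parp10 (chr15:76061604-76073871, minus strand, mm9) shares 1401 bp of its strand with Plec.

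Parp11 had 24.0 and 26.0 CPM in LPS with arctigenin, 29.3 and 33.3 CPM in LPS, and 18.3 CPM in vector. The groups did not overlap, with vector lowest. It rose 1.71-fold with LPS (log2 fold change 0.77 ± 0.14 SE, edgeR adjusted p = 0.000949) and 1.36-fold with LPS and arctigenin (0.45 ± 0.14, edgeR adjusted p = 0.0183), and was lower with arctigenin than with LPS alone (-0.33 ± 0.11, edgeR adjusted p = 0.0339). The last call was lost with DESeq2 (adjusted p = 0.139) and without LPS with arctigenin replicate 1 (0.119), LPS replicate 1 (0.0575) or LPS replicate 2 (0.24). With curated transcripts only, which held 0% to 2.41% of its counts, all 3 changes turned round. The rise with LPS and arctigenin over vector was also lost with DESeq2 (adjusted p = 0.099) and with library totals only (edgeR adjusted p = 0.357).

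Parp8 was near the detection limit, with 1 and 2 estimated counts in LPS with arctigenin, 7 and 5 in LPS, and 2 in vector. It did not pass the filter and was not tested. The ratio of scaled counts was 3.74 for LPS against vector (95% counting interval 0.832 to 34.4) and 0.267 for LPS with arctigenin against LPS (0.0484 to 0.989). These intervals cover counting error only.

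**Figure D2:**
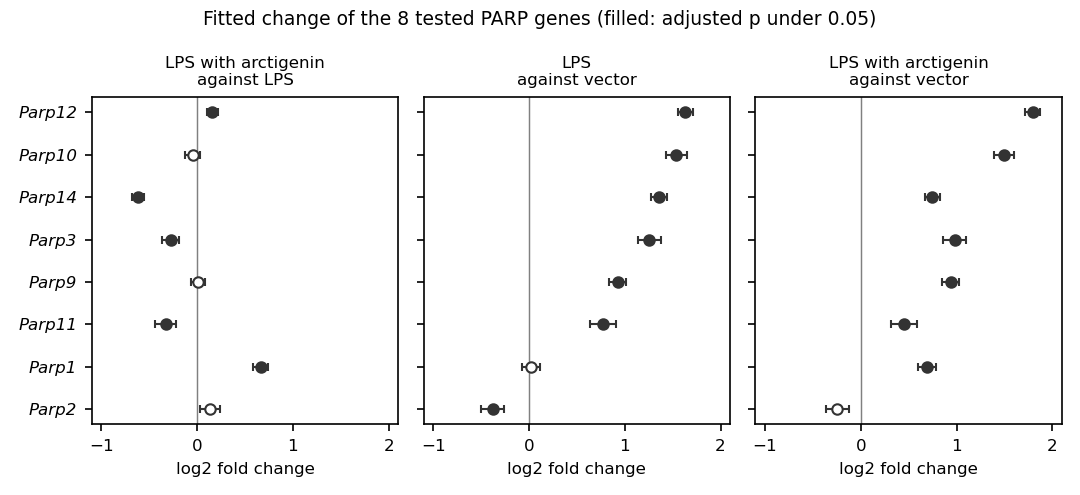
Log2 fold change with its SE for the 8 tested PARP genes in each comparison, filled where the adjusted p was under 0.05. Parp12, Parp10 and Parp14 lie farthest above 0 for LPS against vector, and Parp1 (0.67) and Parp14 (-0.61) lie farthest from 0 for LPS with arctigenin against LPS.

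The plot of fitted changes puts the comparisons side by side. For arctigenin against LPS the uncalled members were Parp2, Parp9 and Parp10, and for LPS against vector the uncalled member was Parp1.

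Scaled by the longest coding transcript of the annotation (GENCODE vM1), levels could be ordered between members. Parp12 was highest in every group, at 77.1 ± 0.601 CPM per kb in LPS with arctigenin, 69.0 ± 0.983 in LPS (SD, n = 2 each) and 22.3 in vector. In LPS with arctigenin the order then ran Parp9 (35.3 ± 1.77), Parp14 (32.8 ± 1.83), Parp1 (20.2 ± 0.311), Parp10 (19.0 ± 0.502), Parp2 (17.3 ± 0.594), Parp3 (13.8 ± 1.0), Parp11 (6.71 ± 0.397) and Parp8 (0.0257). Parp9 and Parp14 overlapped between libraries there. In LPS alone Parp14 (50.1 ± 0.771) was above Parp9 (35.03 ± 1.74), and Parp1 (12.8 ± 0.311) was below Parp10 (19.6 ± 0.148), Parp3 (16.7 ± 0.24) and Parp2 (15.8 ± 1.51), of which Parp3 and Parp2 overlapped. In vector Parp2 (20.5) came next after Parp12, then Parp14 (19.5), Parp9 (18.4), Parp1 (12.6), Parp3 (6.99), Parp10 (6.73), Parp11 (4.92) and Parp8 (0.0258), with 1 library and so no spread. The transcript used need not be the one these cells make.

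**Figure D3:**
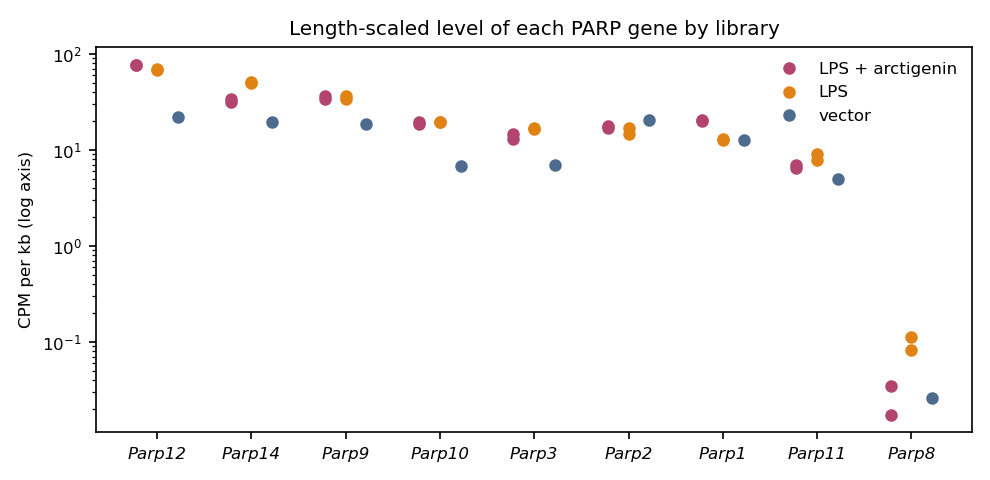
Level per kilobase of each PARP gene in each library on a log axis, as CPM divided by the length of the longest coding transcript. Parp12 is the highest in all 5 libraries and Parp8 lies far below the other 8 genes.

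The plot of levels per kilobase shows the order of members within a library. It is a different quantity from the changes above, since a gene can be low and change strongly.

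At the transcript level, 4 of 27 member transcripts tested rose with LPS, where 3.72% of 35464 transcripts rose and 1.37% fell (5.09% either way). With arctigenin against LPS 1 fell, where 0.606% rose and 0.587% fell (1.19% either way), and in LPS with arctigenin against vector 5 rose, where 4.72% rose and 2.26% fell (6.98% either way). The 4 and the 5 both include Parp3 variant X2, which passed the count filter only through the libraries with LPS. Its calls as higher there are no separate evidence of a rise. Parp10 variant 1 held 84.8% and 85.9% of the gene's estimated counts in LPS with arctigenin, 80.4% and 82.6% in LPS, and 58.9% in vector. It rose with LPS (log2 fold change 1.94 ± 0.14 SE, edgeR adjusted p = 0.00896), whereas variant 2 gave 0.32 ± 0.33 (edgeR adjusted p = 0.667). The change of share itself was not tested.

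Parp3 variant X2, a predicted transcript, had 107.1 and 95.1 estimated counts in LPS with arctigenin, 296.6 and 212.5 in LPS, and 0 in vector. The transcript fit, made against the 0 in vector, called it higher in LPS with arctigenin (edgeR adjusted p = 0.013) and in LPS (edgeR adjusted p = 0.012). Against a floor of 3 counts in the vector library it was 42.3-fold higher in LPS with arctigenin and 101-fold higher in LPS, which was not tested. The floor allows for counting error only, so these folds are no lower bounds. The 0 is an estimate: variant X1 held 31.4% of the gene in vector and 11.6% to 19.0% in the libraries with LPS. Variant X2 passed the count filter only through the libraries with LPS. Its place among the other variants depended on how reads were divided. Parp14 had 90.7% to 95.1% of its counts on the curated transcript, which fell with arctigenin (-0.64 ± 0.06, edgeR adjusted p = 0.0438). Parp11 had 10 transcripts, and its variant X4 held 8.78% of the gene in 1 LPS with arctigenin library and 47.3% in the other, so its division was unstable between replicates.

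**Figure D4:**
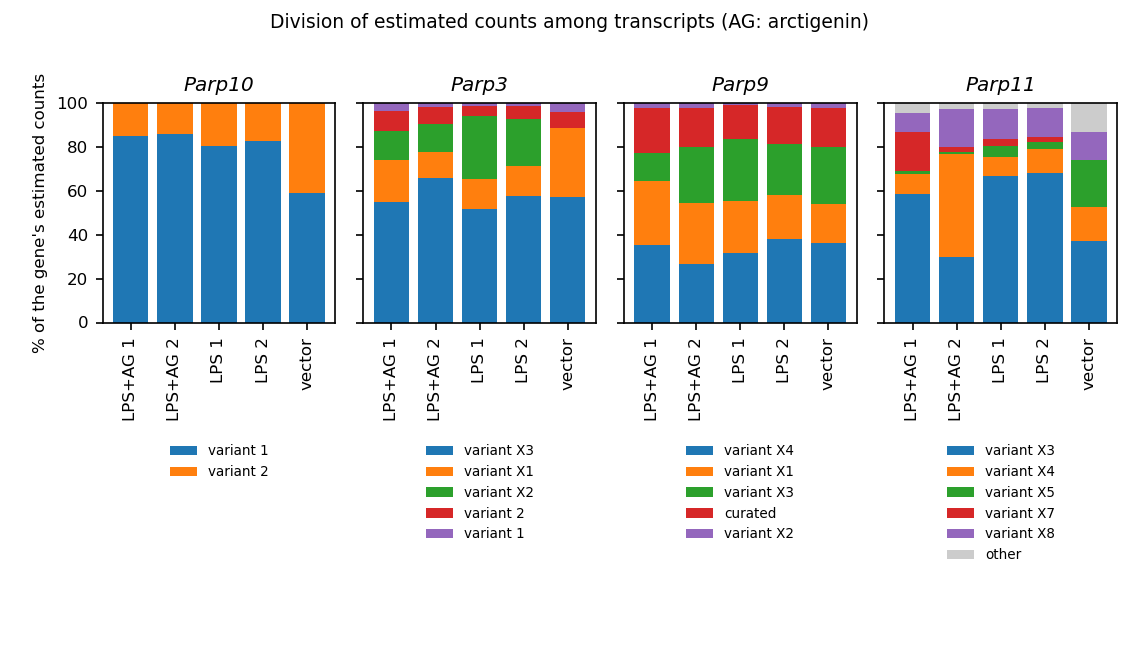
Share of each gene's estimated counts by transcript variant in the 5 libraries, as stacked percent, for Parp10, Parp3, Parp9 and Parp11. Variant 1 of Parp10 takes at least 80.4% in the 4 libraries with LPS and 58.9% in vector, and the division of Parp11 differs between the LPS with arctigenin replicates.

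The plot of transcript shares adds what the gene sums hide, and the estimation of each variant carries its own uncertainty.

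In the list of other family members, 3 of 7 genes rose with LPS, where 27.1% of all genes did. With library totals alone 3 fell, where 4598 of all 11575 genes fell. Tiparp, an ADP-ribosyltransferase that the aryl hydrocarbon receptor induces, had 350 ± 20.2 CPM in LPS with arctigenin and 352 ± 16.6 CPM in LPS (SD, n = 2 each), against 70.1 CPM in vector (log2 fold change 2.33 ± 0.09, edgeR adjusted p = 4.69e-08). The tankyrases Tnks (0.77 ± 0.11) and Tnks2 (0.56 ± 0.08), which attach ADP-ribose chains, rose too. With arctigenin against LPS 2 of 7 fell, where 22% of all genes fell. Zc3hav1, the zinc finger antiviral protein, had 257 ± 34.5 CPM in LPS with arctigenin and 411.1 ± 9.61 CPM in LPS (SD, n = 2 each, -0.68 ± 0.09, edgeR adjusted p = 0.000276). Parp4, the vault-associated member, had 45.7 ± 0.982 CPM in LPS with arctigenin and 67.0 ± 3.59 CPM in LPS (-0.55 ± 0.08, edgeR adjusted p = 0.000415). The Zc3hav1 call was lost with curated transcripts only (adjusted p = 0.159). Parp6 and Parp16 were not called in either comparison.

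Genes listed for the removal or binding of ADP-ribose moved in both directions. Of 13, 2 rose and 3 fell with LPS (27.1% and 24.9% of all genes), and with arctigenin against LPS 2 rose and 2 fell (22.8% and 22% of all genes). The 3 lower became 0 with DESeq2, with curated transcripts and without LPS replicate 1 or LPS replicate 2. With library totals alone they became 7, where 4598 of all 11575 genes fell. Both arctigenin counts became 1 with DESeq2 and without LPS replicate 1, and with curated transcripts the higher count became 0 and the lower 1. The higher count became 1 without LPS with arctigenin replicate 1, and the lower count became 1 without LPS with arctigenin replicate 2 or LPS replicate 2. Parg, the main glycohydrolase of ADP-ribose chains, had 44.4 ± 2.06 CPM in LPS with arctigenin, 40.1 ± 1.48 CPM in LPS and 40.9 CPM in vector, with no call. Adprh, a hydrolase for ADP-ribose on arginine, rose with LPS (0.85 ± 0.12, edgeR adjusted p = 0.000181). Chd1l, a remodeller that Parp1 activity recruits, was higher with arctigenin (0.81 ± 0.10, edgeR adjusted p = 0.000148) and that call was lost with curated transcripts only (adjusted p = 0.101).

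Of 11 partners in DNA break repair, 2 rose and 5 fell with LPS (27.1% and 24.9% of all genes), and with arctigenin against LPS 3 rose and 3 fell (22.8% and 22% of all genes). The 3 lower with arctigenin became 1 without LPS replicate 1 or LPS replicate 2, with DESeq2 and with curated transcripts. The 5 lower with LPS became 3 with curated transcripts and 8 with library totals alone, where 4598 of all 11575 genes fell. Tdp1, which clears protein from DNA ends, had 20.2 ± 0.838 CPM in LPS with arctigenin, 11.5 ± 0.335 CPM in LPS and 24.5 CPM in vector. Fen1, the flap endonuclease, had 20.8 ± 0.684 CPM in LPS with arctigenin, 11.97 ± 2.44 CPM in LPS and 25.3 CPM in vector. Both fell with LPS and rose with arctigenin against LPS (log2 -1.08 and 0.81 for Tdp1, -1.08 and 0.80 for Fen1, with edgeR adjusted p of at most 0.00181), and both calls held in every alternative run. Hpf1, the cofactor that directs Parp1 and Parp2 to serine, rose with LPS (0.84 ± 0.12) and was lower with arctigenin (-0.38 ± 0.10, edgeR adjusted p = 0.0115), which was lost without LPS replicate 2 (adjusted p = 0.0948) and with curated transcripts only (adjusted p = 0.122).

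Of 12 NAD genes tested, 4 rose and 3 fell with LPS (27.1% and 24.9% of all genes), and 5 rose and 5 fell with arctigenin against LPS (22.8% and 22% of all genes). The arctigenin counts, higher and lower, became 2 and 1 without LPS replicate 1, 2 and 3 without LPS replicate 2, 2 and 2 with DESeq2, and 2 and 1 with curated transcripts. The higher count became 3 without LPS with arctigenin replicate 2, and the lower count 3 without LPS with arctigenin replicate 1. Among the 5 higher was Cd38, with 25 and 30 counts in LPS with arctigenin, 8 and 2 in LPS and 4 in vector. Cd38 reached the filter's minimum count of 10 only in the LPS with arctigenin libraries. Its call as higher there is therefore no separate evidence of a rise. Nampt, the rate-limiting enzyme of NAD salvage, had 572 ± 9.66 CPM in LPS with arctigenin, 478.5 ± 27.3 CPM in LPS and 364.3 CPM in vector, and rose with LPS (0.39 ± 0.08) and with arctigenin against LPS (0.26 ± 0.06, edgeR adjusted p = 0.00767). The rise with LPS was lost with library totals alone (0.14, edgeR adjusted p = 0.123), and the rise with arctigenin was lost without LPS replicate 1 (edgeR adjusted p = 0.113). Bst1, an NAD hydrolase, rose with LPS (1.86 ± 0.11, edgeR adjusted p = 1.15e-06), and Sirt2, an NAD-dependent deacetylase, rose with LPS (0.80 ± 0.08) and fell with arctigenin (-0.66 ± 0.07, edgeR adjusted p = 4.07e-05).

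The list of interferon signalling genes, which also holds Dtx3l, had 13 of 15 genes higher with LPS (27.1% of all genes), with a median log2 fold change of 1.07. With arctigenin against LPS 1 rose and 6 fell (22.8% and 22% of all genes), Dtx3l among the 6, with a median of -0.17. The 1 higher became 0 without LPS replicate 1 and 2 without LPS with arctigenin replicate 2, and the 6 lower became 3 with curated transcripts. The transcription factor Irf1 had 13.8 ± 0.881 CPM in LPS with arctigenin, 40.3 ± 2.91 CPM in LPS (SD, n = 2 each) and 20.6 CPM in vector, and fell with arctigenin (-1.55 ± 0.11, edgeR adjusted p = 5.61e-06). Irf7, the interferon-induced relative, rose with LPS (2.40 ± 0.09, edgeR adjusted p = 2.87e-08) and with arctigenin against LPS (0.27 ± 0.06, edgeR adjusted p = 0.00518), a call that was lost without LPS replicate 1 (adjusted p = 0.0862). Stat2 fell with arctigenin against LPS (-0.41 ± 0.06, edgeR adjusted p = 0.000477). Ifnb1, interferon beta, had 13 and 12 counts in LPS with arctigenin, 4 and 0 in LPS and 0 in vector. It reached the filter's minimum count of 10 only in the LPS with arctigenin libraries. A call of Ifnb1 as higher in that group is therefore no separate evidence of a rise. Its call as higher there against vector (edgeR adjusted p = 0.0294) was not rerun in the alternatives. Against LPS, Ifnb1 was not called (edgeR adjusted p = 0.0774), nor was it in 9 of 12 alternatives. It was called with limma-voom (adjusted p = 0.0346), with only the libraries of both groups (edgeR adjusted p = 0.0348) and with the replicate block (edgeR adjusted p = 0.0438).

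**Figure D5:**
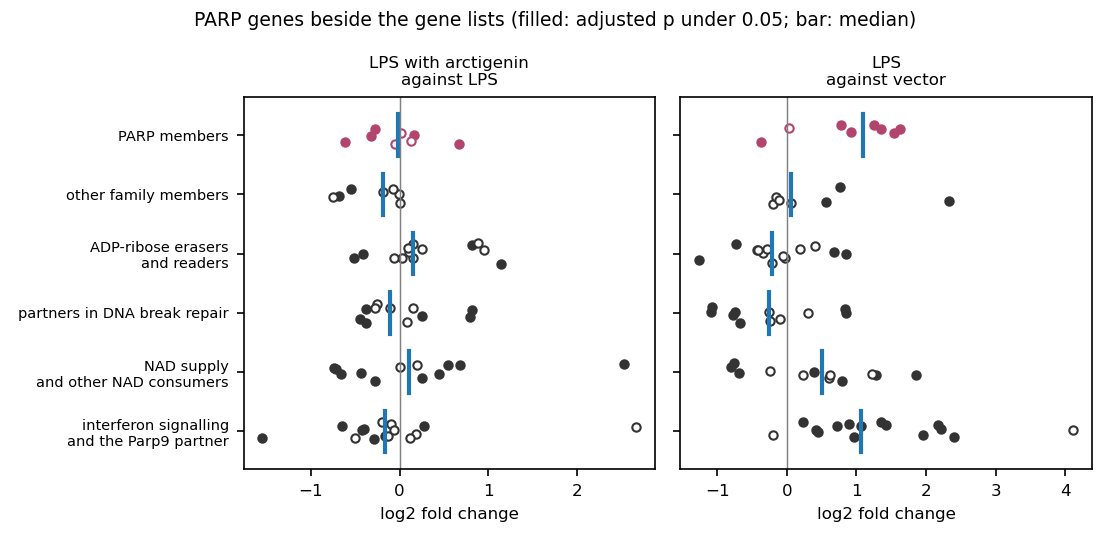
Log2 fold change of each gene in the PARP list and the other lists for LPS with arctigenin against LPS (left) and LPS against vector (right), filled where the adjusted p was under 0.05, with bars at list medians. For LPS against vector the interferon list, with Dtx3l, has a median of 1.07, the PARP genes 1.09 and the other family members 0.064.

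The plot of gene lists sets the PARP members beside the lists. It shows counts and medians only, and no list was tested as a set. Ifnb1 has 0 counts in vector, so its position is a fitted value and no bound.

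The genes whose levels over the 5 libraries were nearest to each member were found among 9181 genes with a mean log2 CPM of at least 2, as the distance between log2 CPM values centred on each gene's mean. For Parp1 these were Sf3b2 (0.073), Lsm12 (0.076) and Ahsa1 (0.085), and for Parp14 Anpep (0.104), Flot1 (0.126) and Arid5b (0.134). The nearest gene was Psmd10 for Parp2 (0.065), Nrp2 for Parp3 (0.062), Pxn for Parp9 (0.059), Msr1 for Parp10 (0.065), Crat for Parp11 (0.031) and Tspo for Parp12 (0.069). Among the members themselves Parp10 and Parp12 were the closest pair (0.275), then Parp3 and Parp14 (0.342). These distances describe 5 libraries in 3 groups and carry no test.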

How the data were processed

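RNA was measured in 5 libraries. The deposited table holds estimated counts per RefSeq transcript, for which the submitters' processing notes list Trimmomatic, HISAT2, Cufflinks, HTSeq, DESeq and build mm9. The notes give no roles or versions, and the tool behind the decimal values is not named in them. Transcript values were added up by gene symbol, then rounded. Of 21878 genes, 11575 passed filterByExpr (minimum count 10, minimum total 15) in edgeR 4.0.16 (R 4.3.3). All libraries entered 1 quasi-likelihood fit with TMM factors (0.942 to 1.16) and a group term (2 residual df). The common dispersion corresponded to a coefficient of variation of 7.13% among libraries, which may be technical. P-values were adjusted by Benjamini-Hochberg and called under 0.05. SE is the absolute log2 change divided by the root of F, and log2 CPM used a prior count of 2. Low counts limit precision for Parp8, and a floor of 3 counts was used for the fold of a transcript at 0 in vector. The fitting script was also run on simulated data in which far fewer genes changed than were called here. That run therefore does not measure its error rate in these data. Genes were named by a rule that took all 9 members, every other family member, up to 4 called genes with the largest change in each further list and comparison, 8 key genes, and the 3 genes nearest each member; some of those are not used here. The members and lists were chosen with earlier results of these data known. Alternatives used RLE factors, no filter, DESeq2 1.42.0, limma-voom (limma 3.58.1), each replicate left out, curated transcripts, 2 groups only, a replicate block, and library totals alone, the last chosen after seeing the data. Positions are from GENCODE vM1 on mm9 and sequences from RefSeq.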

Additional observations from a re-analysis of the deposited data

How the results depend on the processing

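Of 272 results for the tested members over the alternatives, 239 kept direction and call, 24 lost a call, 1 gained a call and 8 reversed. The log2 ratio of Parp8 ran from 1.65 to 2.50 for LPS against vector over 7 alternatives and from -2.48 to -1.50 for LPS with arctigenin against LPS over 6, and was not computed without the count filter, by DESeq2, limma-voom, the 2-group fit or the block. Parp9, Parp10, Parp12 and Parp14 kept their rise with LPS in 11 of 11, and Parp1 and Parp14 their change with arctigenin in 12 of 12. The count of members lower with LPS was 0 with DESeq2 and with curated transcripts, and 0 to 1 when a library was left out, being 0 without LPS replicate 1. Members higher with arctigenin against LPS numbered 1 with RLE factors, DESeq2, curated transcripts, library totals alone and the replicate block, and 1 with each of the 4 libraries left out in turn. Members lower numbered 1 with DESeq2 and curated transcripts, and 1 to 2 with a library left out, the 1 coming from leaving out either LPS library. Members lower in LPS with arctigenin against vector numbered 1 with library totals alone. With curated transcripts, 1895 genes rose and 1316 fell with LPS, 1372 and 1160 with arctigenin against LPS, and 2240 and 1575 in LPS with arctigenin against vector. With library totals alone, 2015 rose and 4598 fell with LPS, and 2138 and 4751 in LPS with arctigenin against vector. Leaving out a library gave 1686 to 2621 genes higher and 1548 to 2559 lower with arctigenin against LPS, 2500 to 3372 higher and 2013 to 3202 lower with LPS.

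Reversed values, whose cause was not tested, were these. With curated transcripts Parp11 gave -1.30 (LPS against vector), 0.60 (arctigenin against LPS) and -0.71 (LPS with arctigenin against vector), Parp3 0.52 and Tnks2 0.23 (arctigenin against LPS), and Parp6 0.33 and Parg 0.12 (LPS against vector). With library totals alone Parp1 gave -0.23 and Parp16 -0.19 for LPS against vector, and Parp9 -0.031 and Parp6 -0.033 for arctigenin against LPS. With each library left out in turn, arctigenin against LPS ran from -0.04 to 0.062 for Parp9, from -0.067 to 0.051 for Tiparp and from -0.042 to 0.061 for Parp6, and LPS against vector ran from -0.065 to 0.006 for Parg and from 0 to 5.07 for Ifnb1 (fitted values, with 0 counts in vector); none of these was called. Depth limits Parp8 and Ifnb1.

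Libraries with the same replicate number showed no shared deviation: deviations of the replicates numbered 1 correlated at -0.008 over 11575 genes. With so few libraries this cannot show whether they were prepared in pairs, which the labels do not state. With the replicate block 2694 genes rose and 2626 fell with arctigenin against LPS, against 2634 and 2546 without it, and the adjusted p of Parp12 was 0.0533. No paired analysis was possible for comparisons with vector because it has 1 library.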
